A study of Mus musculus with 8 samples.

Results

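The genes Fcrls, Lyve1, Folr2, Cd163, Mrc1, F13a1, Pf4, Timd4, Igf1 and Cbr2 are markers of macrophages that live in tissues, and their transcripts were measured in EpCAM-positive cells sorted from mouse pancreatic tumours. These 10 genes were taken by symbol from the 24537 genes of the count table, and all 10 were abundant enough to be tested. They were chosen by their measured values with the fold changes of this same contrast in view, so their differences between arms are given as a description and carry no p-value. The tumours arose in FVB/NJ mice carrying KrasLSL-G12D together with Tp53f/f, the luciferase reporter Rosa26LSL-Luc and Pdx1-Cre. The Cre recombinase, driven by the Pdx1 promoter that is active in the pancreatic lineage, recombines the other alleles. Both arms carried all of these alleles and both received gemcitabine, a nucleoside analogue used as chemotherapy, at 50 mg/kg on days 1 and 4. The IgG arm received control IgG and the anti-LIF arm an antibody that neutralises leukaemia inhibitory factor (LIF), each at 25 mg/kg on days 1, 3 and 5. Treatment began at an age of 42 to 43 days and ended on day 6, when the tumours were dissected at an age of around 48 days. Each arm held 4 libraries, 1 per mouse, whose labels hold the mouse number (for IgG, KPCL-PCC_203_G, then KPCL-PCC_343_G, then KPCL-PCC_345_G, then KPCL-PCC_393_G, and for anti-LIF, KPCL-PCC_227_GA, then KPCL-PCC_310_GA, then KPCL-PCC_354_GA, then KPCL-PCC_391_GA). Where 4 values of an arm are listed they follow this order. No arm without gemcitabine was analysed here.

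Resident macrophages settle in tissues, many of them before birth, and maintain themselves locally under the growth factor receptor encoded by Csf1r, whereas recruited macrophages arise from blood monocytes that enter through the chemokine receptor encoded by Ccr2. Resident cells along vessels and in connective tissue are known for scavenger and endocytic receptors, for taking up dying cells and haemoglobin, and for secreting growth factors. None of the markers is fully specific: Lyve1 is also made by lymphatic endothelium, Pf4 by megakaryocytes, and Igf1 by fibroblasts.

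Counts assigned to genes ran from 15135457 to 18972281 per library. Every library held reads of immune genes although the cells were sorted for EpCAM. The list of 23 core macrophage genes (such as Adgre1, Csf1r and the complement C1q genes) took 2.10% ± 0.22 of counts under IgG and 3.99% ± 0.62 under anti-LIF (mean ± SD, n = 4 each), with no overlap between arms. The epithelial list, which includes Epcam and the keratins, took 0.705% ± 0.058 and 0.316% ± 0.087 in the same order, also with no overlap. Pancreatic acinar genes took 0.116% ± 0.077 and 0.936% ± 0.595, again with no overlap. The share of the recruited monocyte list was 3.29% ± 0.41 and 2.37% ± 0.32 with no overlap, but its summed CPM overlapped (27010 to 36700 and 19320 to 29230), and its gene Chil3 alone stood at 6398 and 678 CPM. Most of that sum was Fn1, a gene that the list of peritoneal macrophage genes also holds, at 19310 ± 1769 and 18770 ± 3389 CPM. These shares are a description, since the lists were chosen with results of these libraries known. Epcam, the marker of the sort, stood at 574.7 ± 76.8 and 305.1 ± 74.8 CPM. KPCL-PCC_343_G and KPCL-PCC_227_GA lay farthest apart on the first principal component, which held 57.4% of the variance. In bulk RNA a larger number of macrophages and more RNA per macrophage cannot be told apart, and the part of these shares in the results below was not tested.

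Promoter sequence of 4 members is shown because the 3 members that hold a MAF core element can be set beside Mrc1, which is the most abundant member and differed least. Each is the stretch of 250 bases before the transcription start in RefSeq's GRCm38.p6 annotation, written 5′ to 3′ on the strand of the gene. Capitals mark GAGGAA, the box read by the myeloid factor PU.1, and TGCTGA, the core element of MAF factors, or their reverse complements TTCCTC and TCAGCA. The windows are chr3:87263525-87263774 on the minus strand for Fcrls, chr7:101845332-101845581 on the minus strand for Folr2, chr11:46810549-46810798 on the plus strand for Timd4 and chr2:14229164-14229413 on the plus strand for Mrc1.
Fcrls: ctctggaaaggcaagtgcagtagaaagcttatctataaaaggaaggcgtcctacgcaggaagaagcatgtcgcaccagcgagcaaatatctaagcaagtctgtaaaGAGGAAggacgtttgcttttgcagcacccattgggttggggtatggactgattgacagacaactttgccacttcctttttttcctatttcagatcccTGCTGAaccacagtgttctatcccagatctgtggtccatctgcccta
Folr2: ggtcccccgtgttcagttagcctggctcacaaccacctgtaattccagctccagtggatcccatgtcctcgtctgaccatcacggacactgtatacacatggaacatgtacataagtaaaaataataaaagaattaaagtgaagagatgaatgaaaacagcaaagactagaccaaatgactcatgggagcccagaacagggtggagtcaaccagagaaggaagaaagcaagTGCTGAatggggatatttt
Timd4: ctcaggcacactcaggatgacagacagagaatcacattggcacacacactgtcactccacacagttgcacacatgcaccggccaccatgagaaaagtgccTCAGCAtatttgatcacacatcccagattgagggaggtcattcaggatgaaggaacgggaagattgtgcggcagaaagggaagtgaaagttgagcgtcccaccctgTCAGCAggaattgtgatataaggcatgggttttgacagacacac
Mrc1: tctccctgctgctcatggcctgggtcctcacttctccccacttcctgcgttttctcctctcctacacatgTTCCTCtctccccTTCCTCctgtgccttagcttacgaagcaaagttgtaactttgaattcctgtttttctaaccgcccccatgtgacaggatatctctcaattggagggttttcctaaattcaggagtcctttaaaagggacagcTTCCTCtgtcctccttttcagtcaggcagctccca
Windows were found for 9 of the 10 members, 11 windows in all because Folr2 and F13a1 have 2 each. Lyve1 had no window. On either strand, TGCTGA occurred in windows of 3 members, Fcrls, Folr2 and Timd4, and in 16.1% of all 32851 windows of the table. The windows of Igf1, Cbr2 and F13a1, which were also higher under anti-LIF, held no TGCTGA. Those of Cd163, Pf4 and Mrc1, whose arms overlapped, held none either. GAGGAA occurred in windows of 6 members (Fcrls, Mrc1, Pf4, Igf1, Cbr2 and F13a1) and in 23.3% of all windows. A member was counted if any of its windows matched, whereas the percentages are of single windows, so these are unlike measures. In Igf1 and F13a1 the window with the match belongs to another start than that of the counted transcript. The Mrc1 window held it 3 times, with first bases at −180, −167 and −35 from the start. The STAT sequence TTCNNNGAA occurred in windows of 0 members and in 7.02% of all windows. The motifs do not overlap one another in these windows, and a match of letters is not evidence of binding.

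Across the set, the surface receptors Fcrls, Folr2, Lyve1 and Timd4, the growth factor Igf1, the enzyme Cbr2 and the clotting subunit F13a1 were higher under anti-LIF, by 2.76-fold to 33.5-fold. Cd163, Pf4 and Mrc1 had higher means under anti-LIF, but their arms overlapped. In the fit over all 14711 tested genes (edgeR's quasi-likelihood test, Benjamini-Hochberg adjusted p under 0.05), 7 of the 10 members were past the threshold and higher and 0 were lower, while 15.7% of all tested genes were higher and 16.5% lower. For 7 members every anti-LIF library lay above every IgG library in CPM (read counts scaled to library size by the trimmed mean of M values), as did 17.6% of all tested genes. The rule drew on this contrast, so nothing is read from these shares. The median log2 fold change of the members was 2.37, against −0.01 over all tested genes. With KPCL-PCC_343_G and KPCL-PCC_227_GA both left out the count was also 7, which describes the same contrast and adds no support.

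**Figure D1:**
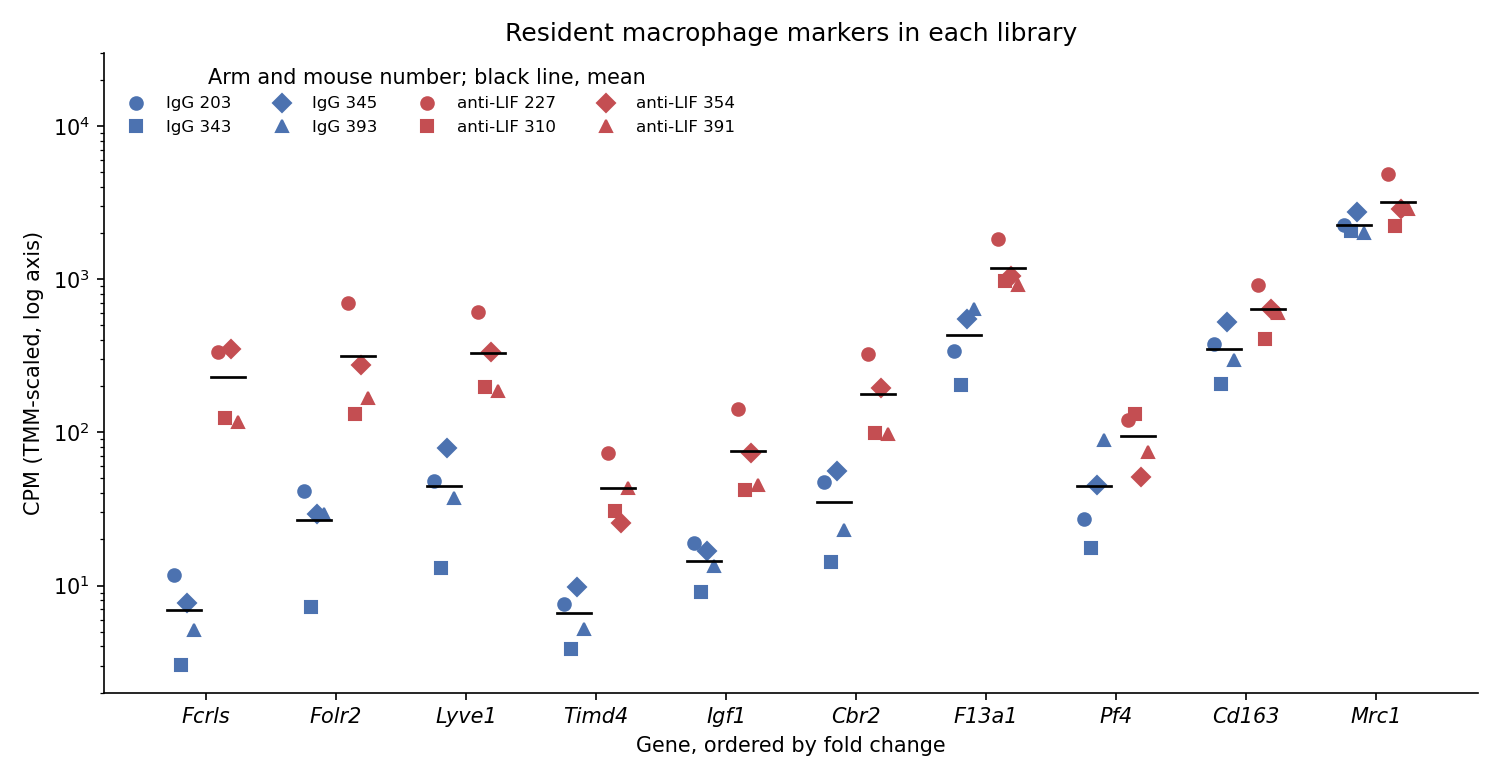
CPM of each of the 10 members in each of 8 libraries on a log axis, with the IgG arm in blue, the anti-LIF arm in red and the arm mean as a black line. The arms are separate from Fcrls to F13a1 and overlap for Pf4, Cd163 and Mrc1, and KPCL-PCC_343_G is the lowest IgG library for 9 members.

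Fcrls (chromosome 3, 87250965 to 87263524, mm10) encodes a scavenger receptor of the Fc receptor-like family, known as a marker of microglia and other tissue macrophages. It stood at 11.7, 3.02, 7.70 and 5.14 CPM in the IgG libraries. In the anti-LIF libraries it stood at 333.7, 123.9, 347.7 and 116.9 CPM. The lowest anti-LIF library was 9.99 times the highest IgG library, and within the anti-LIF arm KPCL-PCC_227_GA and KPCL-PCC_354_GA formed the upper pair. The log2 fold change was 5.07 ± 0.56 SE (33.5-fold, means of 6.89 and 230.5 CPM), which ranked 11 by size among the 2303 genes that were higher. IgG libraries held between 55 and 204 reads of Fcrls, so each of those values carries a counting error beside the spread between mice.

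Folr2 (chromosome 7, 101839988 to 101845331) encodes folate receptor beta, a surface receptor that binds folate. Its IgG libraries held 41.4, 7.19, 29.1 and 29.1 CPM. The anti-LIF libraries held 695.2, 131.7, 274.0 and 166.8 CPM. KPCL-PCC_343_G was the low one in its arm and KPCL-PCC_227_GA the high one, and the arms did not overlap. Its log2 fold change was 3.57 ± 0.67 (11.9-fold).

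Lyve1 (chromosome 7, 110850607 to 110862953) encodes a receptor for the matrix sugar hyaluronan. With IgG it stood at 48.4, 13.01, 78.7 and 37.4 CPM, and under anti-LIF at 611.2, 199.0, 332.5 and 185.5 CPM. The log2 fold change was 2.90 ± 0.57 (7.48-fold), and the lowest anti-LIF library was 2.36 times the highest IgG library. Prox1, which encodes the factor that defines lymphatic endothelium, stood at 9.004 ± 2.15 CPM under IgG and 8.35 ± 2.36 under anti-LIF (n = 4 each). Flt4, which encodes a growth factor receptor of lymphatic vessels, was lower under anti-LIF, at 50.2 ± 13.4 and 22.6 ± 8.98 CPM (edgeR adjusted p = 0.0267). Eng, which encodes endoglin and is made by endothelium and by macrophages, was 3.01-fold higher, at 30.5 ± 6.53 and 91.7 ± 27.8 CPM (edgeR adjusted p = 0.00386). The endothelial receptor gene Tie1 was 2.19-fold higher, at 3.14 ± 1.01 and 6.89 ± 1.93 CPM (edgeR adjusted p = 0.0185), and did not pass when scaled to the core macrophage list. The whole list of lymphatic and blood endothelium summed to 136 to 183 CPM under IgG and 161 to 206 CPM under anti-LIF, and of its 15 tested genes 2 were higher and 1 was lower, or 1 and 10 when scaled to the core macrophage list and 7 and 0 when scaled to the epithelial list. Whether endothelial cells had a part in the Lyve1 values was not tested. The lower count was 0 to 3 over the alternatives without list scaling, and leaving out KPCL-PCC_343_G, KPCL-PCC_393_G, KPCL-PCC_354_GA or KPCL-PCC_391_GA moved it.

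Timd4 (chromosome 11, 46810799 to 46844333) encodes a receptor for phosphatidylserine, the lipid that dying cells expose. It stood at 7.63, 3.84, 9.83 and 5.19 CPM under IgG and at 72.9, 30.6, 25.8 and 43.3 CPM under anti-LIF. This gave a log2 fold change of 2.70 ± 0.40 (6.50-fold), and the arms did not overlap. Here KPCL-PCC_354_GA was the lowest library of its arm, although the same library was the highest of its arm for Fcrls.

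Cd163 (chromosome 6, 124304651 to 124330527) encodes the scavenger receptor for haemoglobin bound to haptoglobin. Its values were 379.4, 207.2, 528.1 and 296.2 CPM under IgG and 921.7, 405.7, 634.4 and 601.3 CPM under anti-LIF. KPCL-PCC_310_GA lay below KPCL-PCC_345_G, so the arms overlapped, and the log2 fold change of 0.86 ± 0.32 (1.82-fold) was not past the threshold. It passed when KPCL-PCC_345_G or KPCL-PCC_310_GA was left out (1.12 and 1.04). With all libraries kept, it also passed under another test, DESeq2 (0.87), and when scaled to the epithelial list (1.99).

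Mrc1 (chromosome 2, 14229414 to 14332023) encodes the mannose receptor CD206, an endocytic lectin that recruited macrophages can also make. IgG libraries held 2259, 2052, 2729 and 2006 CPM, and anti-LIF libraries held 4835, 2237, 2871 and 2854 CPM. Only KPCL-PCC_227_GA stood well above the other 7 libraries. The log2 fold change was 0.50 ± 0.24 (1.42-fold) and was not past the threshold, and without KPCL-PCC_227_GA it was 0.23.

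Among the secreted and intracellular products, F13a1 (chromosome 13, 36867178 to 37049213), the A subunit of clotting factor XIII, stood at 337.7, 205.0, 547.1 and 635.9 CPM under IgG. With anti-LIF it stood at 1828, 974.4, 1054 and 913.2 CPM. The 3 lower anti-LIF libraries lay close together and KPCL-PCC_227_GA apart from them, and all 4 exceeded the highest IgG library, by a factor of at least 1.44. That is a log2 fold change of 1.47 ± 0.37 (2.76-fold).

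Igf1 (chromosome 10, 87859052 to 87937047), which encodes insulin-like growth factor 1, stood at 18.9, 9.01, 16.8 and 13.5 CPM under IgG and at 142.9, 41.9, 73.3 and 45.3 CPM under anti-LIF. The log2 fold change was 2.38 ± 0.42 (5.22-fold), and the arms did not overlap. Fibroblast genes, another source of Igf1, summed to 1405 to 2652 CPM under IgG and 570 to 1756 CPM under anti-LIF. The mean of the matrix gene Fbln2 fell by more than the mean of this sum, from 1432 ± 319 CPM under IgG to 499.9 ± 210.3 under anti-LIF (edgeR adjusted p = 0.0121). Without Fbln2 the summed mean of the list was higher under anti-LIF, though the arms overlapped. Whether fibroblasts had a part in the Igf1 values was not tested. The collagen gene Col3a1 stood at 190.9 ± 129.9 and 297.0 ± 125.8 CPM (n = 4 each), with overlap. The collagen gene Col1a1 stood at 105.2 ± 48.2 and 126.1 ± 58.0 CPM in the same order, and the fibroblast receptor gene Pdgfra at 9.46 ± 2.68 and 5.24 ± 2.95 (n = 4 each). Of 18 fibroblast genes, 2 were higher, Fap (2.31-fold) and Dpt (2.17-fold), and 1, Fbln2, was lower. The counts were 0 and 8 when scaled to the core macrophage list and 12 and 0 when scaled to the epithelial list. Over the alternatives without list scaling 1 to 2 were on either side, and KPCL-PCC_203_G, KPCL-PCC_343_G, KPCL-PCC_345_G, KPCL-PCC_227_GA or KPCL-PCC_354_GA, when left out, moved a count by more than 1.5 times.

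Cbr2 (chromosome 11, 120729485 to 120732021) encodes a carbonyl reductase. It stood at 47.4, 14.2, 56.1 and 23.0 CPM under IgG and at 324.8, 99.3, 195.9 and 97.6 CPM under anti-LIF. Its log2 fold change was 2.35 ± 0.53 (5.10-fold), with KPCL-PCC_227_GA highest and KPCL-PCC_391_GA lowest among the anti-LIF libraries and no overlap between arms.

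Pf4 (chromosome 5, 90772435 to 90773383) encodes the chemokine platelet factor 4. Its values were 27.2, 17.6, 45.2 and 89.2 CPM under IgG and 120.6, 132.5, 51.2 and 74.4 CPM under anti-LIF. KPCL-PCC_393_G exceeded KPCL-PCC_354_GA and KPCL-PCC_391_GA, and the log2 fold change of 1.08 ± 0.49 (2.11-fold) was not past the threshold. Without KPCL-PCC_393_G it was 1.66 and passed. The platelet and megakaryocyte list summed to 89.9 to 124 CPM under IgG and 63.2 to 77.5 CPM under anti-LIF. The integrin gene Itgb3, which other cells also make, supplied most of that difference, at 67.5 ± 15.4 and 34.9 ± 8.14 CPM (edgeR adjusted p = 0.0105), and turns to a log2 fold change of 0.09 when scaled to the epithelial list. Of 10 tested genes 4 were lower (Itgb3, Gp1ba, Treml1 and Clec1b) and 1 was higher, or 8 and 0 when scaled to the core macrophage list and 1 and 3 when scaled to the epithelial list. The higher gene was Gfi1b, which lies outside the naming rule and is named after its value was seen. It did not pass without KPCL-PCC_203_G, KPCL-PCC_343_G, KPCL-PCC_345_G, KPCL-PCC_393_G, KPCL-PCC_227_GA or KPCL-PCC_354_GA. In the same list Ppbp, the platelet chemokine gene next to Pf4, stood at 2.94 ± 3.16 and 2.54 ± 1.48 CPM, and the platelet integrin gene Itga2b at 3.44 ± 1.56 and 2.27 ± 0.53 (n = 4 each). Pf4 read 80.5 to 140.2 counts for each 1000 of F13a1 under IgG and 48.6 to 136.0 under anti-LIF.

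The proportions of the members to one another also differed between the arms. Mrc1 made up 70.9% ± 7.40 of the summed CPM of the 10 members under IgG and 51.3% ± 3.31 under anti-LIF (mean ± SD, n = 4 each), and these arms did not overlap. In the same order the share of F13a1 was 13.1% ± 5.24 and 19.2% ± 2.09, with overlap, and that of Cd163 was 10.7% ± 2.23 and 10.3% ± 1.23. Fcrls went from 0.210% to 3.61% of the sum, Folr2 from 0.809% to 4.50% and Lyve1 from 1.29% to 5.01%. The summed level itself was 3224 ± 624 CPM under IgG and 6305 ± 2463 CPM under anti-LIF. For every 1000 counts of Mrc1, Fcrls had 1.47 to 5.18 counts under IgG and 41.0 to 121.1 under anti-LIF. Folr2 had 3.51 to 18.3 and 58.4 to 143.8, and Lyve1 had 6.34 to 28.8 and 65.0 to 126.4. The ratio of Cd163 to Mrc1 overlapped between the arms, at 101.0 to 193.5 and 181.4 to 220.9. Fcrls was higher against Folr2 as well, at 176.3 to 419.8 counts for each 1000 of Folr2 under IgG and 479.9 to 1269 under anti-LIF.

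**Figure D2:**
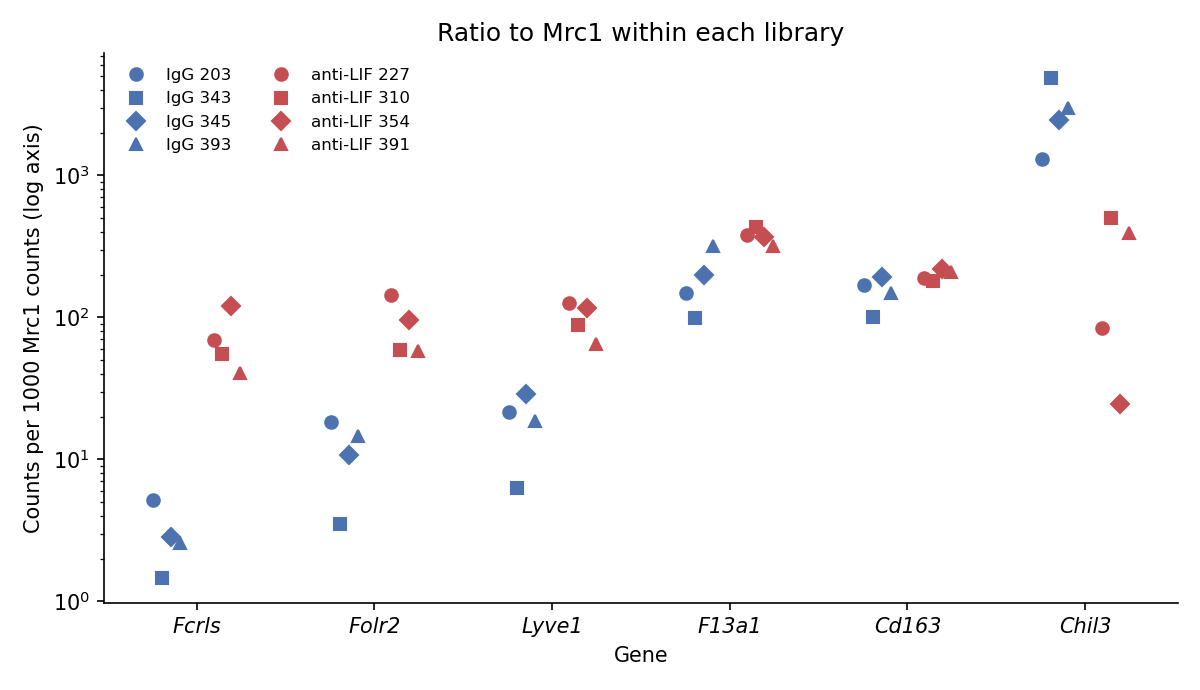
Counts of 5 members and of Chil3 for every 1000 counts of Mrc1 in the same library, on a log axis, with 1 point per library. Fcrls, Folr2 and Lyve1 are higher in all 4 anti-LIF libraries. F13a1 is too, but by a narrow margin, at 99.95 to 317.0 under IgG and 320.0 to 435.7 under anti-LIF. Cd163 overlaps, and Chil3 is lower, at 1300 to 4862 under IgG and 24.6 to 498.5 under anti-LIF.

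Levels were compared between genes as CPM per kilobase of transcript. With IgG the order was Mrc1 (427.8), F13a1 (111.8), Cd163 (78.9), Pf4 (76.8), Cbr2 (34.8), Folr2 (24.9), Lyve1 (17.1), Fcrls (3.48), Timd4 (3.06) and Igf1 (2.04). With anti-LIF, Mrc1 (605.3) and F13a1 (308.9) again led, and Folr2 (295.1), Cbr2 (177.4), Pf4 (162.4), Cd163 (143.3), Lyve1 (127.8), Fcrls (116.4), Timd4 (19.9) and Igf1 (10.7) followed. The ranges over 4 libraries of neighbours in these orders overlapped, except for Mrc1 and F13a1 under IgG and for Fcrls and Timd4 under anti-LIF. The coefficient of variation of a member was 14.6% to 70.9% under IgG and 33.2% to 81.8% under anti-LIF.

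The share of macrophage reads moved with the antibody, so each member was also set against the core macrophage list of the same library. For every 1000 counts of that list, Fcrls had a mean of 0.344 counts under IgG and 5.35 under anti-LIF (15.7-fold from the mean log2 ratios). Folr2 had 1.34 and 6.80, Lyve1 had 2.16 and 7.42, and Timd4 had 0.327 and 0.976. For these 4 receptors, and for Igf1 (0.729 and 1.69) and Cbr2 (1.72 and 4.02), every anti-LIF library remained above every IgG library. F13a1 (21.7 and 27.5), Pf4 (2.30 and 2.27) and Cd163 (17.4 and 14.9) overlapped. Mrc1 had the opposite order, with 113.4 counts per 1000 in the IgG arm and 73.7 in the anti-LIF arm, and every anti-LIF library below every IgG library (log2 difference −0.63). The lysozyme gene Lyz2 alone supplied 21.0% of core macrophage counts under IgG and 30.8% under anti-LIF. Without Lyz2 in the list the log2 difference of Mrc1 was −0.43 and the arms overlapped, while the 6 separate members stayed separate.

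**Figure D3:**
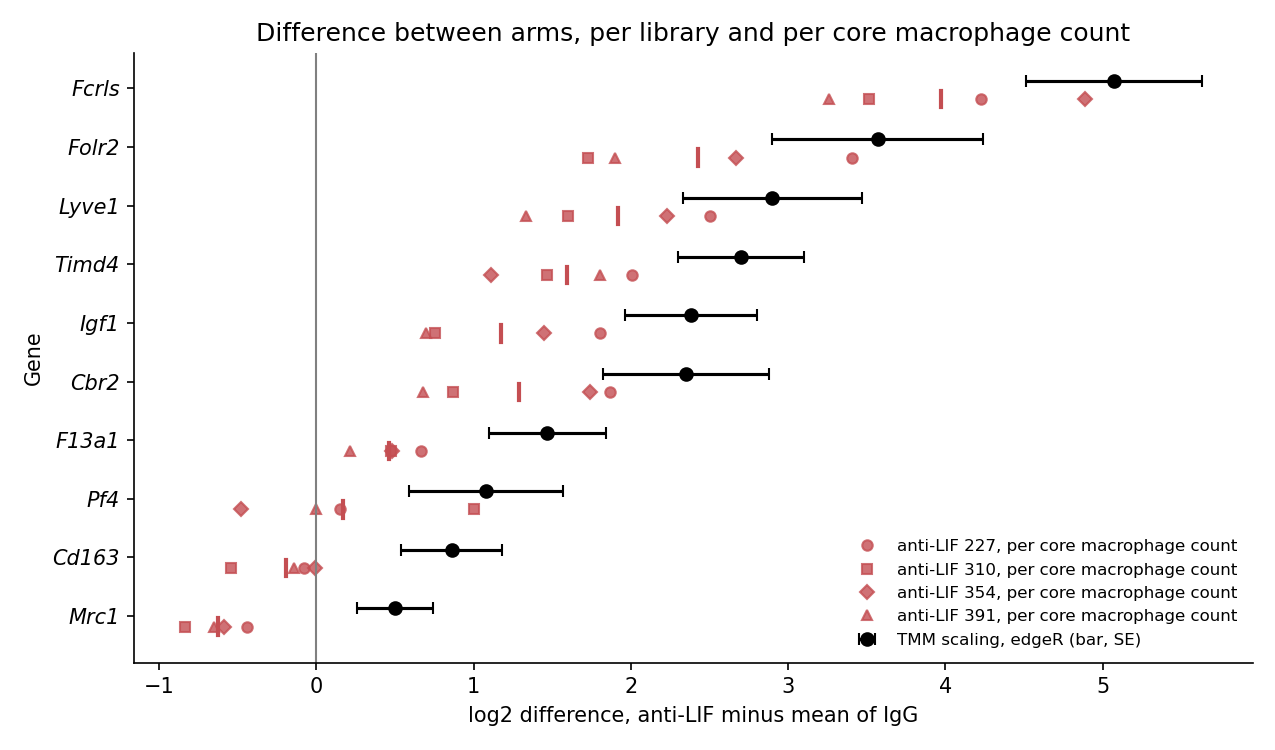
Log2 difference between arms for each member, as the edgeR fit gives it after scaling by the trimmed mean of M values (black, bar = SE) and as counts per core macrophage count in each anti-LIF library minus the mean of the IgG libraries (red, vertical line = mean). The red means lie to the left of the black ones for all 10 members, from 3.97 for Fcrls to −0.63 for Mrc1.

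A fit over all genes with the libraries scaled to the core macrophage list shifts every gene, to a median log2 fold change of −1.07. On that scale 6 of the 10 members were past the threshold and higher, against 1.33% of all tested genes, and 1 member, Mrc1 (−0.62), was past it and lower, against 82.8%. The log2 fold changes of the members not past the threshold were 0.34 for F13a1, −0.02 for Pf4 and −0.23 for Cd163. The members were chosen with this contrast in view, so nothing is read from these shares either. The summed members against the summed core list gave a log2 ratio of −2.64 ± 0.18 under IgG and −2.80 ± 0.22 under anti-LIF (mean ± SD, n = 4 each). Without Mrc1 the same ratio was −4.46 ± 0.58 and −3.84 ± 0.30, which turns the sign of the difference from −0.16 to 0.62, and without Lyz2 in the core list the difference was 0.03.

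Other genes of resident macrophages were read from a separate list. Of 39 tested genes in it, 31 were higher, 0 lower and 8 not past the threshold (median log2 fold change 1.66), or 18 higher and 6 lower when scaled to the core macrophage list. The lectin gene Cd209f stood at 2.04 ± 1.23 CPM under IgG and 88.9 ± 50.7 under anti-LIF (log2 fold change 5.43 ± 0.54, edgeR adjusted p = 0.00227). The scavenger receptor gene Stab1 stood at 350.6 ± 110.4 and 1940 ± 665 CPM (2.47 ± 0.29, edgeR adjusted p = 0.00285), and the membrane protein gene Ms4a7 at 16.0 ± 5.08 and 138.6 ± 34.8 CPM (3.11 ± 0.28, edgeR adjusted p = 0.00206). The most abundant genes of the list, Selenop and C4b, had arms that overlapped. Selenop stood at 1626 ± 436 and 3900 ± 2021 CPM (1.26 ± 0.37) and passed. C4b stood at 792 ± 104 and 1798 ± 1430 CPM (1.18 ± 0.44) and did not pass.

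Of the 23 core macrophage genes themselves, 17 were higher and 0 lower (median 0.86), or 4 higher and 9 lower when scaled to their own sum. Adgre1, which encodes the F4/80 antigen, rose 2.65-fold, Csf1r 2.91-fold and Cx3cr1, a chemokine receptor gene of monocytes and resident macrophages, 5.56-fold. The recruited monocyte list was mixed, with 3 of 20 genes higher and 3 lower (median −0.06), or 2 and 14 when scaled to the core macrophage list and 12 and 1 when scaled to the epithelial list. In it Ccr2 rose from 113.9 ± 30.7 to 480.9 ± 155.0 CPM (2.08 ± 0.28, edgeR adjusted p = 0.00342). The lysozyme gene Lyz1 rose from 23.9 ± 7.53 to 147.5 ± 68.8 CPM (2.62 ± 0.37, edgeR adjusted p = 0.00383). Chil3, a chitinase-like secreted protein gene, dropped from 6398 ± 2891 to 678 ± 525 CPM (edgeR adjusted p = 0.0153), and Ear2, a ribonuclease gene of monocytes and eosinophils, from 999 ± 210 to 436 ± 121 CPM (edgeR adjusted p = 0.00837). The serous-cavity macrophage factor gene Gata6 stood at 21.5 ± 1.94 and 15.9 ± 4.01 CPM (n = 4 each) and was not past the threshold. Of 16 epithelial genes 0 were higher and 14 lower, or 0 and 16 when scaled to the core macrophage list. Of 14 tested acinar genes 12 were higher and 0 lower, or 11 and 0 on that scale. In the remaining cell type lists, 3 of 12 peritoneal macrophage genes were higher and 2 lower, and 4 of 10 microglia genes and 4 of 11 lymphocyte genes were higher and 0 lower. Of 14 dendritic cell genes 3 were higher and 1 lower, and 0 of 5 mast cell genes passed either way. Scaled to the core macrophage list, the higher and lower counts were 2 and 7 for peritoneal macrophage, 1 and 4 for microglia, 0 and 1 for lymphocyte, 1 and 5 for dendritic cell and 0 and 3 for mast cell genes. Scaled to the epithelial list they were 8 and 0, 10 and 0, 11 and 0, 11 and 0, and 3 and 0 in the same order. Of all 14711 tested genes, 15.7% were higher and 16.5% lower, or 1.33% and 82.8% when scaled to the core macrophage list. On the epithelial scale 11360 were higher and 157 lower. Leaving out KPCL-PCC_343_G, KPCL-PCC_310_GA or KPCL-PCC_354_GA moved the lower count of peritoneal genes by more than 1.5 times, KPCL-PCC_345_G that of dendritic cell genes, and KPCL-PCC_203_G or KPCL-PCC_393_G that of mast cell genes.

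**Figure D4:**
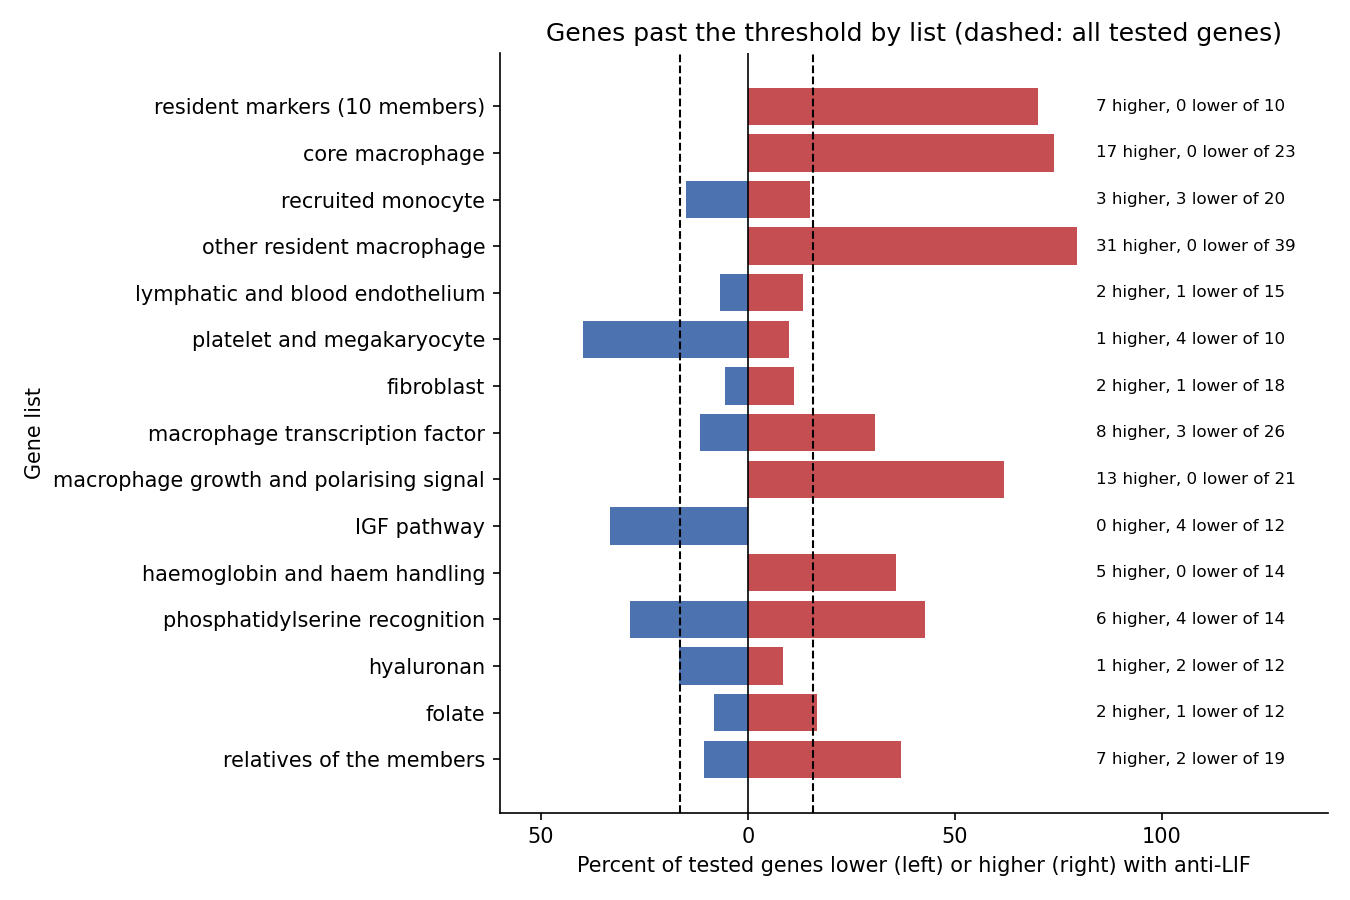
Percent of tested genes past the threshold and higher (red, right) or lower (blue, left) under anti-LIF for the 10 members and for lists of other genes, with dashed lines at the shares of all tested genes, 15.7% and 16.5%. The lists of core and other resident macrophage genes have 17 of 23 and 31 of 39 genes higher and none lower on this scale, and 4 and 18 higher with 9 and 6 lower when scaled to the core macrophage list.

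Genes that act with the members were counted from lists of their pathways. Beside the counts here and around single members below, 15.7% of all tested genes were higher and 16.5% lower. On the core macrophage scale these shares were 1.33% and 82.8%, and on the epithelial scale 11360 and 157 of 14711 genes. Of 21 tested growth and polarising signal genes, 13 were higher and 0 lower, or 4 and 10 when scaled to the core macrophage list. Among those higher was Il10, an anti-inflammatory cytokine gene, at 1.46 ± 0.40 and 11.9 ± 3.59 CPM (3.01 ± 0.30, edgeR adjusted p = 0.00227). Of 26 macrophage transcription factor genes, 8 were higher and 3 lower, or 2 and 18 on the core macrophage scale and 22 and 1 on the epithelial scale. Maf, which encodes a factor of resident macrophages that reads the TGCTGA element searched above, rose 3.16-fold, and Mef2c rose 2.95-fold. Whether Maf had a part in the values of the members was not tested. Spi1, which encodes PU.1, rose 1.72-fold, but its log2 fold change of 0.79 turns to −0.29 when scaled to the core macrophage list. Pparg, a lipid-sensing nuclear receptor gene, was 3.93-fold lower, from 44.5 ± 12.4 to 11.4 ± 5.27 CPM. The count of 3 lower factors was 1 to 3 over the alternatives without list scaling, and KPCL-PCC_343_G and KPCL-PCC_354_GA were the libraries that moved it.

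Around Igf1, 0 of 12 tested genes of the IGF pathway were higher and 4 lower, or 5 and 0 when scaled to the epithelial list. The receptor gene Igf1r (log2 fold change −0.36 ± 0.08), the adaptor gene Irs2 (−0.67 ± 0.21) and the binding protein gene Igfbp7 (−0.84 ± 0.18) were among the 4, and all 3 turn positive when scaled to the epithelial list, at 0.72, 0.32 and 0.18. The count was 2 to 5 over the alternatives without list scaling, and leaving out KPCL-PCC_343_G, KPCL-PCC_393_G, KPCL-PCC_227_GA or KPCL-PCC_354_GA moved it by more than 1.5 times.

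Around Cd163, 5 of 14 genes of haemoglobin and haem handling were higher and 0 lower, or 0 and 9 when scaled to the core macrophage list. The haem-degrading enzyme gene Hmox1 had a log2 fold change of 0.76 ± 0.22, which turns to −0.31 when scaled to the core macrophage list, and the copper ferroxidase gene Cp had 1.67 ± 0.39. This count was 2 to 6 over the alternatives without list scaling, and leaving out KPCL-PCC_203_G, KPCL-PCC_343_G, KPCL-PCC_393_G or KPCL-PCC_227_GA moved it by more than 1.5 times.

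Around Timd4, 6 of 14 genes of phosphatidylserine recognition were higher and 4 lower, or 3 and 7 when scaled to the core macrophage list and 11 and 0 when scaled to the epithelial list. Among those higher were Gas6, a bridging ligand gene (1.77 ± 0.38), and Cd300lb, a myeloid receptor gene (1.57 ± 0.24). The count of lower genes was 0 to 4 over the alternatives without list scaling, and leaving out any library other than KPCL-PCC_393_G moved it by more than 1.5 times.

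Around Lyve1, 1 of 12 hyaluronan genes was higher and 2 were lower, or 0 and 7 on the core macrophage scale and 8 and 0 on the epithelial scale. Tmem2, a hyaluronidase gene, had 0.91 ± 0.26, which turns to −0.25 when scaled to the core macrophage list, and the hyaluronan receptor gene Cd44 had −0.40 ± 0.12, which turns to 0.63 when scaled to the epithelial list. Around Folr2, 2 of 12 folate genes were higher and 1 lower, or 0 and 8 on the core macrophage scale, with the folate transporter gene Slc46a1 at 0.90 ± 0.19, or −0.14 when scaled to the core macrophage list. Of all tested genes 15.7% were higher and 16.5% lower, or 1.33% and 82.8% on the core macrophage scale. Nothing is read from the hyaluronan and folate counts beside these shares. Among sequence or family relatives of the members, 7 of 19 tested genes were higher and 2 lower, or 0 and 9 when scaled to the core macrophage list, and the inhibitory Fc receptor gene Fcgr2b stood at 810 ± 138 and 1947 ± 655 CPM (1.26 ± 0.23). Leaving out KPCL-PCC_343_G or KPCL-PCC_345_G moved these small counts in all 3 lists by more than 1.5 times, as did KPCL-PCC_393_G and KPCL-PCC_354_GA for the hyaluronan and folate lists and KPCL-PCC_203_G for the folate list.

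The members differed in how closely they followed their common profile, taken as the mean of their log2 CPM centred on each gene's mean over 8 libraries. That profile stood at −2.08 in KPCL-PCC_343_G, between −1.04 and −0.62 in the other IgG libraries, between 0.68 and 1.14 in 3 anti-LIF libraries and higher still in KPCL-PCC_227_GA. Igf1 lay closest to it, with a mean absolute difference of 0.201 log2 units, followed by Cbr2 (0.295) and Timd4 (0.309). Fcrls lay farthest, at 1.37, with arms that differed more, and Mrc1 next, at 0.918, with arms that differed less. Outside the set the nearest genes were Susd3 (0.129), Ccl12 (0.169), Ifitm3 (0.172), Ly9 (0.218), Stab1 (0.223), Mx1 (0.226), Stard8 (0.226) and Pigz (0.232). For all of these 8 genes every anti-LIF library lay above every IgG library, which the likeness to the profile makes likely by construction.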

How the data were processed

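RNA of sorted EpCAM-positive cells was measured in 8 libraries, and the members and gene lists were chosen with earlier results of these data known. Per the submitters' processing notes, reads were checked with FastQC 0.11.2, aligned to mm10 with STAR 2.4.0k and counted with HOMER, and edgeR 3.6.8 was named for the authors' own comparison. The strand setting and annotation were not given in the sources used here. Raw counts per gene and, in another table, FPKM were deposited by the authors. All 168000 FPKM values compared matched count over length and header total within 0.002, and there were 0 unused columns. F13a1 and Cd163 carry another transcript in the FPKM table. Reads of Folr2, Cd163, Mrc1, F13a1 and Igf1 cannot be told apart from those of overlapping non-coding RNA genes if strand was not used.

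Differences between arms were fitted with edgeR 4.0.16 under R 4.3.3 (filterByExpr, TMM, quasi-likelihood test, Benjamini-Hochberg threshold 0.05) on all 14711 tested genes. The fit was tested on simulated data. There, 7 of 67 genes given a 1.5-fold difference passed the threshold. At 2-fold it was 35 of 66, at 4-fold 58 of 66, and with no difference 3 of 14352. Small differences are thus often missed with 4 libraries per arm. That Mrc1, Cd163 and Pf4 were not past the threshold does not show that their arms were equal. Alternatives used other scalings and filters, DESeq2 1.42.0, limma 3.58.1 (voom, or trend on FPKM in log2 after adding 1 or 0.1), and libraries left out, 19 fits in all. Leaving out 2 libraries together and Lyz2 were added after seeing the data. Mouse numbers are not shared between arms, so libraries were not paired. P-values set the difference between arms against the spread between mice. A planned permutation test of list shares is not reported, since the lists were chosen with results known.

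Genes named are the members, up to 4 genes with the lowest p and 2 with the highest level from each of 21 lists, fixed markers and the 8 nearest profiles (126 genes). The subset printed was chosen after their values were seen. A group of 4 libraries was checked for a value far from the others at 0.829 of its range. Promoter windows came from RefSeq, and only the 250 bases before the start were searched, a limit set after a first scan of longer windows. The limit leaves out a TGCTGA match beyond the start in Cbr2 and GAGGAA matches beyond it in F13a1.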

Additional observations from a re-analysis of the deposited data

Results flagged for a closer look

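F13a1 in the anti-LIF arm was picked out because 1 library lay far from the other 3: KPCL-PCC_227_GA stood at 1828 CPM, against 974.4, 1054 and 913.2 CPM. It was the only such case among the 22 groups of 4 libraries checked (both arms of each member and of the summed members), and chance flags about 1 in 20 groups. Without KPCL-PCC_227_GA the log2 fold change of F13a1 was 1.19 in place of 1.47, and still past the threshold.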

How the results depend on the processing

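The members past the threshold and higher numbered 6 to 10 over 19 alternative fits, and Fcrls, Lyve1, Folr2, Timd4, Igf1 and Cbr2 were past it in all 19, F13a1 in 18, Cd163 in 4, Pf4 in 2 and Mrc1 in 1. These fits reuse the contrast that the members were chosen from, so these counts describe the processing and add no support. With the libraries scaled to the core macrophage list, 1 member was lower, the member median was 1.22, and 195 genes were higher and 12177 lower. On that scale Cd163 (−0.23), Mrc1 (−0.62), Pf4 (−0.02), Spi1 (−0.29), Hmox1 (−0.31), Tmem2 (−0.25) and Slc46a1 (−0.14) changed sign. Scaled to the epithelial list, the member median was 3.58 with 11360 genes higher and 157 lower, all 10 members were higher, and Igf1r (0.72), Irs2 (0.32), Igfbp7 (0.18), Cd44 (0.63), Itgb3 (0.09) and Epcam (0.10) changed sign. Library size alone gave 1430 genes higher and 28.6% of calls higher, against 48.7%, with an all-gene median of −0.16. Log2(FPKM + 0.1) gave 1535 higher, 31.5% of calls. Leaving out 1 library gave 1467 to 2218 genes higher and 1507 to 2136 lower, the lowest both without KPCL-PCC_343_G, and 1521 lower without KPCL-PCC_354_GA. Without KPCL-PCC_343_G and KPCL-PCC_227_GA there were 1455 and 1407. The difference of the summed members from the core list, −0.16, became 0.62 without Mrc1 and 1.32 with each gene weighted equally. It was 1.23 against the recruited monocyte list, most of whose counts were Fn1, and 0.03 without Lyz2 in the core list. The cause was not tested, except that list scaling shifts all genes by construction. No paired analysis was possible because the arms share no mouse number. Fcrls and Timd4 rest on few reads under IgG, as few as 55 and 70 in a library.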
